A study of Rattus norvegicus with 24 samples.

Results

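The matrix metalloproteinases (MMPs), the ADAM and ADAMTS proteases and the tissue inhibitors of metalloproteinases (TIMPs) were followed in muscle that was silenced, left to recover and silenced again. Members were chosen by symbol alone (Mmp, Timp, Adam, Adamts or Adamtsl followed by a number), which gave 52 of 13458 symbols in the table. They are 17 MMPs, 13 ADAMs, 14 ADAMTSs, 3 ADAMTS-like genes, 4 TIMPs and Mmp24os, a gene on the strand opposite to Mmp24 that the symbol rule also takes. Of these, 37 are counted here as proteases (the MMPs, the ADAMTSs and 6 ADAMs known as active enzymes), 4 as inhibitors and 11 as neither. The grouping of the other 7 ADAMs was not checked against protein sequences, and Adam30, which is known to carry the zinc-binding motif of an active enzyme, is among them.

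The tissue was whole tibialis anterior (TA), the muscle at the front of the shin, of aged male Fischer 344 rats of about 23 months. In 9 animals a cuff around the left common peroneal nerve delivered tetrodotoxin (TTX), a blocker of nerve impulses, and the left TA was collected at 3 stages with 3 animals each. The atrophy limbs had 6 to 7 days of TTX, the recovery limbs had 9 days without TTX on top of that, and the repeated atrophy limbs had a second period of 5 to 6 days of TTX after those 9 days. The untreated right TA of these 9 animals is the control group, so every control limb came from an animal that had been treated with TTX on the other side, and the control limbs were collected at 3 different stages. Both limbs of 3 sham-operated animals complete the 24 samples, with 1 sham animal collected at each of the 3 stages.

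MMPs are secreted or membrane-bound enzymes that cut collagens and other matrix proteins, and most are made as inactive precursors. ADAMs sit in the cell membrane and release the outer part of other membrane proteins, while ADAMTSs are secreted and trim procollagens or cut proteoglycans such as versican. TIMPs bind the active site of many of these enzymes, though not of all, and the muscle matrix is rebuilt under the balance of both.

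Levels are given in CPM, which scales each sample's reads to a total of 1000000, and fold changes were fitted with limma on log2(CPM + 1), which understates the change of members near or below 1 CPM. A member was called when its fold reached 1.2 and its p, adjusted over all 14031 rows tested by the method of Benjamini and Hochberg, did not exceed 0.05. The median row shifted by 0.22 on the log2 scale in atrophy, by 0.02 in recovery and by 0.20 in repeated atrophy against control, and a median of ratios rescaling brought these medians to 0.00, 0.01 and -0.01. The depth, inferred from the smallest step between values, was 18.9 to 30.9 in units of 1000000 reads per sample. The muscle fibre markers (6 genes, Acta1 and Ckm among them) summed to 53710 to 114700 CPM in control, which fits the labelled tissue, against 39530 to 64470 CPM in atrophy and 46600 to 68080 CPM in repeated atrophy. In whole muscle, fewer cells of a type and less RNA per cell cannot be told apart.

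In control muscle the family was led by few genes. Per kilobase of transcript, Timp2 (mean of 24.98 CPM per kb), Adam9 (22.8), Adamtsl4 (17.6), Mmp15 (14.8), Timp4 (10.5) and Timp3 (8.82) stood highest among the members other than Mmp24os (31.5), and Adamts1 and Mmp2 followed at 7.55 and 7.54. Mmp24os overlaps Mmp24 on the opposite strand, and whether counting used strand is not given in the sources used here. Of the 52 members, 14 had a mean of at least 10 CPM over the 24 samples, 19 lay between 1 and 10 CPM and 19 lay under 1 CPM, 10 of them MMPs. Both secreted collagenases in the table were among the low members: Mmp13 averaged 0.0394 CPM and was listed at 0 in 6 of 9 control limbs, and Mmp8 averaged 0.173 CPM with 6 of 9 at 0. The gelatinases were split, with Mmp2 at a mean of 29.2 CPM and Mmp9 at 0.322 CPM.

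**Figure D1:**
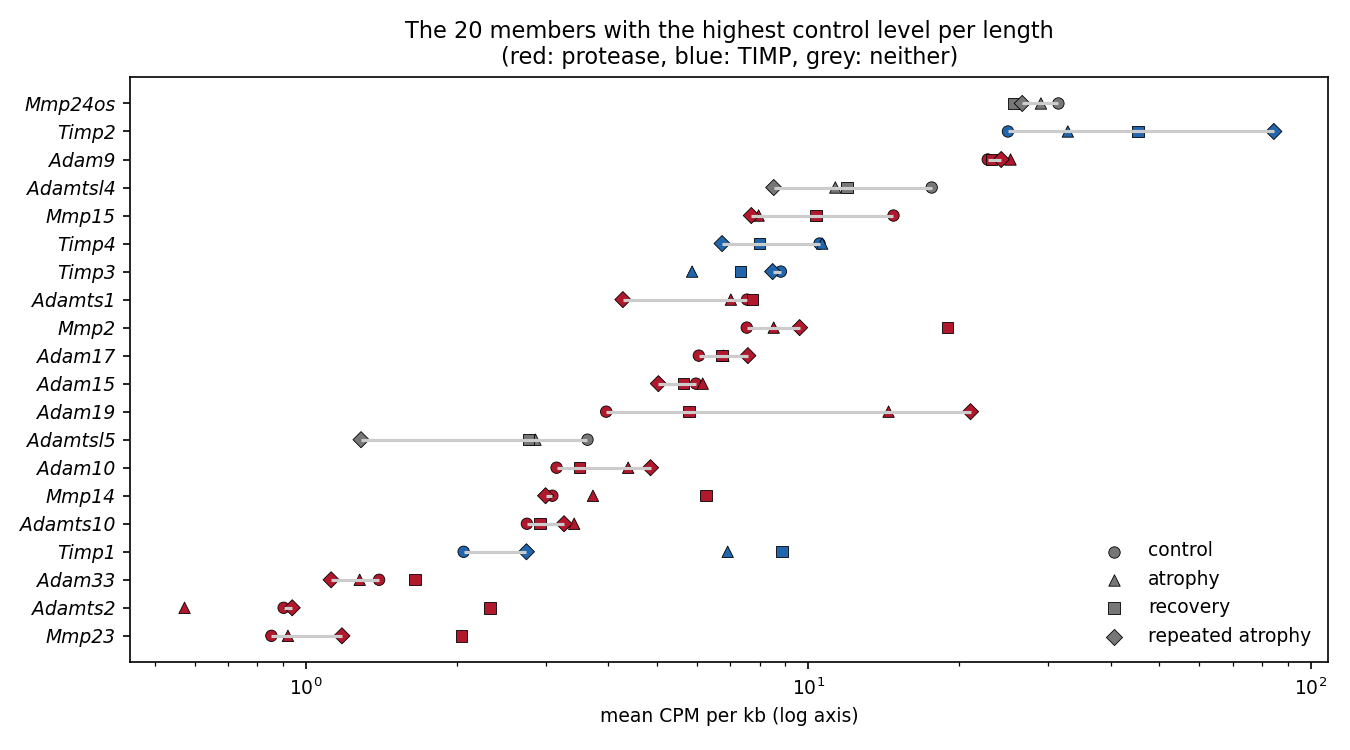
Mean CPM per kb (log axis) of the 20 members with the highest control level, with a marker shape for each of control (n = 9), atrophy, recovery and repeated atrophy (n = 3 each) and colours for protease, TIMP and neither. A grey line joins control to repeated atrophy. Timp2 moved from 24.98 to 84.5 and Adam19 from 3.96 to 21.04, while Adam9 stayed near 23 to 25 in all 4 groups.

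After the first silencing, 2 proteases rose in every treated limb. Adam19, a membrane-bound ADAM that can release neuregulin (chr10:30491412-30583114, rn7), was 119, 50.1 and 104 CPM in the 3 atrophied limbs, and the 9 control limbs lay between 8.33 and 36.8 CPM with a median of 24.1. The lowest atrophied limb, that of animal 2, was above the highest control limb. The log2 fold change was 1.83 ± 0.38 (SE, limma adjusted p = 0.00721). Adamts6, a secreted protease related to Adamts10 (chr2:35421510-35633302), was 24.03, 8.80 and 28.5 CPM against 3.11 to 7.11 CPM in control (median 5.20). Again animal 2 was the lowest and still above control (log2 fold change 1.67 ± 0.31, SE, limma adjusted p = 0.00623).

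In all, 6 of 52 members (11.5%) were called in atrophy, 4 higher and 2 lower, beside 22.6% of all rows (20.3% higher and 2.33% lower). The members' median log2 fold change was 0.07, and that of all rows was 0.22. Timp1, an inducible inhibitor of secreted MMPs, was 9.38, 1.11 and 4.85 CPM against 0.694 to 3.24 CPM in control (log2 fold change 1.06 ± 0.37, SE, limma adjusted p = 0.0482). Adamts4, an aggrecan-cutting protease, was low throughout at 0.986, 0.154 and 1.99 CPM against 0.0363 to 0.554 CPM (0.57 ± 0.20, limma adjusted p = 0.0468). For both genes animal 2 lay within the control range and the other 2 limbs lay above it. Over the whole sample, the 10 highest genes held 25.6% of CPM in animal 2, within the 24.28 to 32.75% of control. They held 13.0% and 15.6% in the other 2 atrophied limbs.

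The 2 lower members were Mmp15, a membrane-type MMP, and Adamtsl4, a fibrillin-binding protein without a catalytic domain. Mmp15 was 25.9, 45.2 and 20.2 CPM against 32.3 to 85.9 CPM in control, with animal 2 again inside the control range (log2 fold change -0.89 ± 0.29, SE, limma adjusted p = 0.0342). Adamtsl4 was 38.6, 50.6 and 52.0 CPM, each below the lowest control limb at 54.7 CPM (-0.60 ± 0.18, limma adjusted p = 0.0264). The atrophy calls rested on few animals and on the unpaired control. No member was called with animal as a block (smallest adjusted p among the 6 of 0.151, for Adamts6, beside 0% of all rows called) or without atrophy animal 1 (adjusted p = 0.132 for Adam19 and 0.130 for Adamts6), 2 were called without atrophy animal 3 or recovery animal 1 (Adam19 and Adamts6 in both cases), 3 without recovery animal 3 and 9 without atrophy animal 2. Over all 9 such fits, Adamts4 lost its call in 8, Timp1 in 7, Mmp15 in 6 and Adamtsl4 in 3. The share of all rows called is not given here for fits without an animal, so their counts have no background beside them. After rescaling, which called 9.72% of all rows, Timp1 and Adamts4 were no longer called (adjusted p = 0.155 and 0.161), and Timp3 was called lower (-0.88, adjusted p = 0.0261).

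The satellite cell markers summed to 15.6 to 90.8 CPM in the atrophied limbs and 39.8 to 70.5 CPM in repeated atrophy, against 8.89 to 16.7 CPM in control. Of the 3 genes, only Myf5 was called in either comparison (log2 fold change 2.63 in atrophy and 3.05 in repeated atrophy), and the call in atrophy was lost with the block (adjusted p = 0.151). Pax7 averaged 0.506 CPM in control, 0.232 CPM in atrophy and 0.740 CPM in repeated atrophy. Chodl averaged 6.06, 7.27 and 6.43 CPM in the same groups. The sums in the sham left limbs ran from 9.16 to 72.9 CPM. The tendon markers (2 of 3 listed genes in the table) summed to 11.1 to 67.0 CPM in atrophy and 28.3 to 68.2 CPM in repeated atrophy, against 7.19 to 26.9 CPM in control and 4.13 to 18.04 CPM in recovery. Scx, a transcription factor of tendon cells, was called in both (log2 fold change 1.47 and 2.07), and with the block its call held in repeated atrophy (adjusted p = 0.0265) and was lost in atrophy (adjusted p = 0.181), while Tnmd was called in neither (-0.49 and -0.35). Of the 3 neutrophil markers, S100a8 was called in repeated atrophy (0.98). Its mean was 2.19 CPM there and 0.626 CPM in control, beside 4.88 CPM in the sham left and 2.92 CPM in the sham right limbs. Of all rows, 20.3% were called higher in atrophy and 28.1% in repeated atrophy. No gene of these 3 lists was at 0 throughout a group. Myf5 and Scx were called higher in the same silenced groups as Adam19 and Adamts6, and their part in the result was not tested. Myf5 also averaged 25.4 CPM (SD 37.4) in the sham left limbs, where no member was called.

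In recovery 6 of 52 members (11.5%) were called, each of them higher, beside 7.73% of all rows (4.4% higher). Of these 6, Timp1 had also been called in atrophy. The members' median was 0.15, against 0.02 for all rows. Mmp2, the gelatinase that also cuts collagen fragments and basement membrane (chr19:14154657-14182871), was 58.0, 37.4 and 77.2 CPM in the 3 recovering limbs and 15.4 to 36.0 CPM in control (median 22.1). The limb of animal 2 was just above the highest control limb and the other 2 were well above it (log2 fold change 1.29 ± 0.29, SE, limma adjusted p = 0.0136). Mmp14, the membrane-type MMP that activates the Mmp2 precursor together with Timp2, was 20.0, 10.9 and 15.1 CPM against 4.68 to 11.9 CPM and missed the threshold (0.93 ± 0.29, limma adjusted p = 0.0563). It passed after rescaling (0.93, adjusted p = 0.0339).

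Timp1 (chrX:1212984-1217583) was 4.40, 4.95 and 10.3 CPM in recovery, each above the control maximum of 3.24 CPM (log2 fold change 1.56 ± 0.37, SE, limma adjusted p = 0.0182). The left limbs of the sham animals had 4.27, 4.07 and 3.94 CPM of Timp1, which is also above the control maximum, and their right limbs had 1.65, 1.84 and 4.37 CPM. The sham difference was 1.07 ± 0.25 on the log2 scale with a limma adjusted p of 0.167.

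The other 4 members called in recovery were ADAMTSs, of 14 in the table. Adamts2, which removes the amino-terminal propeptide of fibrillar procollagens, was 11.7, 4.30 and 10.5 CPM against 1.52 to 5.33 CPM in control (1.11 ± 0.31, SE, limma adjusted p = 0.0392), with animal 2 inside the control range. Adamts12, which can cut cartilage oligomeric matrix protein, was 3.39, 3.44 and 4.96 CPM against 1.19 to 2.67 CPM with no overlap (0.82 ± 0.18, limma adjusted p = 0.0112). Adamts9, a versican-cutting protease, was 7.95, 7.98 and 5.16 CPM against 1.86 to 5.38 CPM, and animal 3 lay inside the control range (0.82 ± 0.24, limma adjusted p = 0.0447). With the sham right limbs added to the control the difference was 0.52 and not called (adjusted p = 0.428). Adamts9 reached 11.1, 4.38 and 16.9 CPM in the sham left limbs and 11.1, 4.74 and 15.6 CPM in the sham right limbs. Adamts16 was below 1 CPM everywhere, with 0.911, 0.327 and 0.632 CPM in recovery and 5 of 9 control limbs at 0. It was higher on the left in 2 of 3 recovering animals, so 1 recovering limb did not exceed the control limb of its animal.

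These recovery calls were lost with animal as a block, where adjusted p ranged from 0.162 (Adamts12) to 0.320 (Adamts16) and 0.0641% of all rows were called. Without recovery animal 3 no member was called, and without recovery animal 1 the only call was Adamts12. Over the 9 fits that each left out 1 animal, the call was lost in 6 for Adamts9 and for Adamts16, in 5 for Adamts2, in 2 for Mmp2 and for Timp1 and in 1 for Adamts12. After rescaling, 10 members were called beside 12.1% of all rows, with Mmp14, Mmp19, Mmp23 and Mmp3 added.

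The fibroblast markers moved with these members. The 5 of 6 listed genes in the table summed to 1022 to 1918 CPM in recovery against 194 to 528 CPM in control, 221 to 528 CPM in atrophy and 319 to 514 CPM in repeated atrophy, and 4 of the 5 were called higher (Col3a1, Col1a1, Lum and Dcn). Those 4 also stand in the list of matrix substrates below, so both lists count them. Pdgfra, the other gene, averaged 19.3 CPM against 11.6 CPM in control and was not called. The macrophage markers (6 genes) summed to 175 to 410 CPM in recovery against 57.1 to 181 CPM in control, with 3 of 6 called higher (Adgre1, Cd68 and Mrc1), where 4.4% of all rows were called higher. The macrophage sums were 124 to 256 CPM in the sham left limbs and 97.4 to 230 CPM in the sham right limbs, which overlaps recovery. With animal as a block 0 of the 5 and 0 of the 6 were called (smallest adjusted p of 0.0798, for Col3a1). No gene of either list was at 0 throughout a group, and the part of these levels in the results was not tested.

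Of 16 tested genes for known substrates in the matrix (21 listed), 10 were called higher in recovery and none lower, beside 4.4% of all rows called higher, and their median log2 fold change was 1.41. The other 6 did not pass the test, among them Comp (-0.10) and Eln (0.41). Col3a1 had 695 ± 254 CPM (SD, n = 3) against 72.6 ± 51.4 CPM in control (SD, n = 9), a log2 fold change of 3.46 (limma adjusted p = 0.00233). Col1a1 (3.07), Col1a2 (2.75) and Lum (2.58) followed. With animal as a block none of the 16 was called, with an adjusted p of 0.0798 for Col3a1. In atrophy and in repeated atrophy 1 of the 16 was called higher, beside 20.3% and 28.1% of all rows, and it was Bgn, a small leucine-rich proteoglycan, in both (log2 fold change 1.43 and 2.54). Its call in atrophy was lost with the block (adjusted p = 0.175) and after rescaling (adjusted p = 0.120), and that in repeated atrophy held in both.

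Repeated silencing gave the largest member change of the 3 comparisons with control. Adam19 was 146, 156 and 94.2 CPM, against a control maximum of 36.8 CPM (log2 fold change 2.42 ± 0.38, SE, limma adjusted p = 2.3e-04). Adamts6 was 22.8, 29.4 and 15.1 CPM against at most 7.11 CPM in control (1.90 ± 0.31, limma adjusted p = 3.1e-04). Neither overlapped control, and with animal as a block the adjusted p was 0.0155 for Adam19 and 0.0126 for Adamts6.

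Timp2, the inhibitor that also takes part in Mmp2 activation (chr10:103542994-103590612), was the third member to rise, at 88.8, 140 and 192 CPM against 24.9 to 63.3 CPM in control (median 42.5). Every silenced limb exceeded every control limb (log2 fold change 1.73 ± 0.31, SE, limma adjusted p = 5.8e-04). Within animals, the left limb exceeded the right by 1.60 ± 0.10 on the log2 scale (SD, n = 3, range 1.51 to 1.70), and with animal as a block the adjusted p was 0.00465. In the first atrophy Timp2 was 83.6, 29.0 and 51.2 CPM, with 1 limb above the control range, and in recovery it was 78.8, 54.9 and 92.3 CPM, with 2 limbs above it. Neither was called (adjusted p = 0.486 and 0.0879).

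Of the 52 members, 9 (17.3%) were called in repeated atrophy, 3 higher and 6 lower, beside 34.3% of all rows (28.1% higher and 6.24% lower). The members' median log2 fold change was -0.00047, against 0.20 for all rows. All 9 calls held with animal as a block (27.1% of all rows called) and after rescaling (25.1%). Against the right limbs of the same 3 animals alone, 7 of the 9 held, and Mmp15 and Adamts1 did not (adjusted p = 0.0856 and 0.110). With the sham right limbs added to the control, Mmp15 was lost (adjusted p = 0.0921). Of the 9, 5 held without repeated atrophy animal 2: Adam19, Adamts6, Timp2, Timp4 and Adamtsl4.

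**Figure D2:**
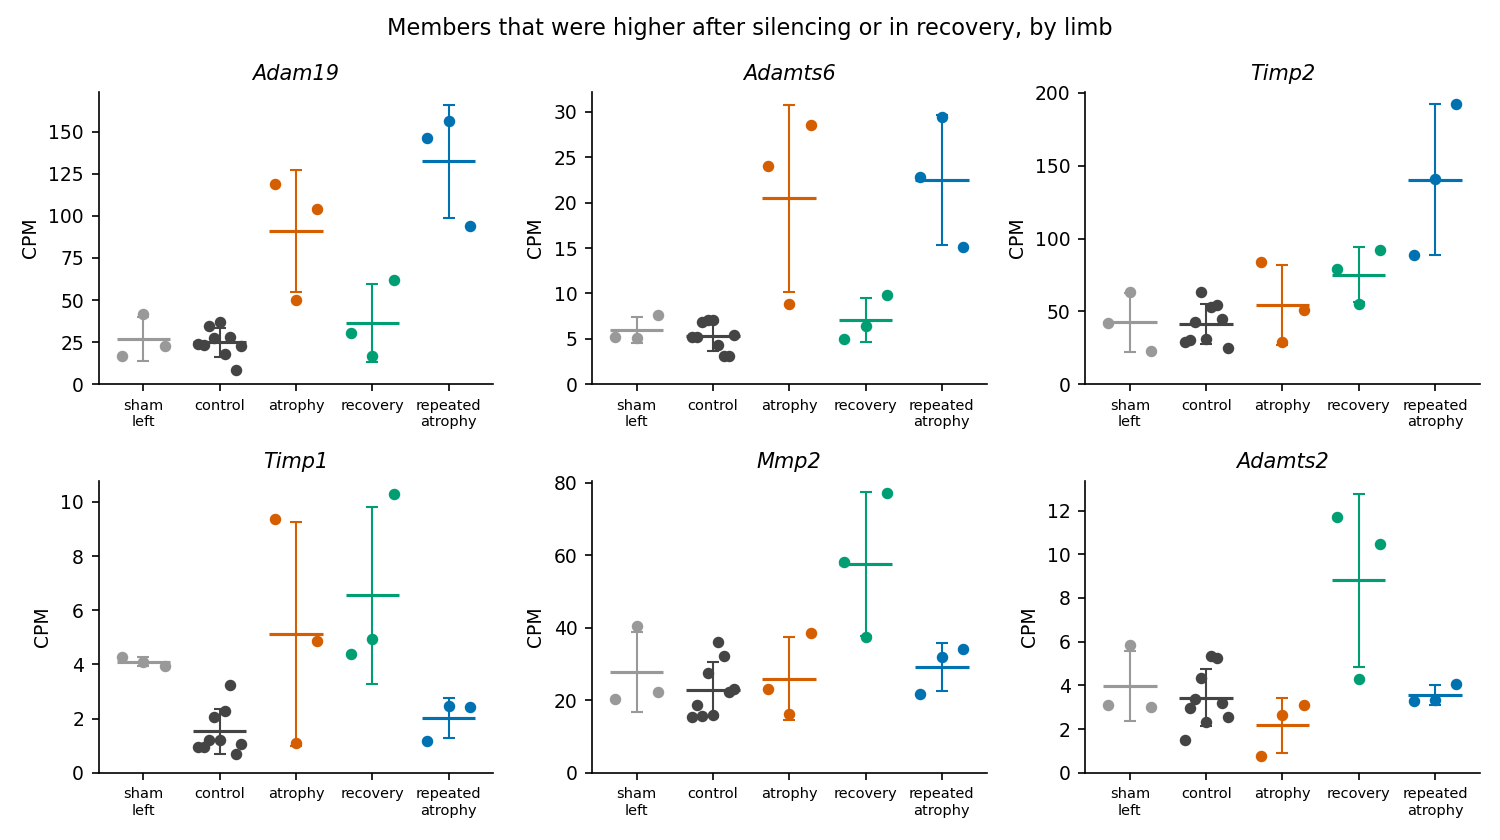
CPM of 6 members in each limb of the sham left, control, atrophy, recovery and repeated atrophy groups. Points are limbs, horizontal lines are means and bars are SD (n = 9 in control and 3 in the other groups). Adam19 and Adamts6 are above all control limbs after both silencing periods, while in recovery 2 limbs lie within the control range and animal 3 lies above it, Timp2 is highest after repeated silencing (88.8 to 192 CPM), and Mmp2 and Adamts2 are highest in recovery.

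Among the 6 lower members, Adamtsl4 was 38.0, 31.6 and 36.8 CPM, each below the control minimum of 54.7 CPM (log2 fold change -0.99 ± 0.18, SE, limma adjusted p = 6.6e-04). Timp4, the TIMP known for heart and skeletal muscle, was 12.7, 13.0 and 8.70 CPM, each below the control minimum of 15.1 CPM (-0.61 ± 0.16, limma adjusted p = 0.00564). Timp4 thus fell where Timp2 rose, in the same 3 limbs. Without repeated atrophy animal 3 the call of Timp4 was lost (adjusted p = 0.084).

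Mmp15 was 18.9, 25.8 and 43.5 CPM against 32.3 to 85.9 CPM in control, with animal 3 inside the range (-0.94 ± 0.29, SE, limma adjusted p = 0.0173). Within animals its left limb was lower by a mean of -0.87 ± 0.11 on the log2 scale (SD) in 3 of 3, and it was lower in 3 of 3 in atrophy (-0.74) and in recovery (-0.70) as well. Adamtsl4 was also lower on the left in 3 of 3 recovering animals (-0.41). Against control in recovery, neither was called (log2 fold change -0.47 for Mmp15 and -0.52 for Adamtsl4, limma adjusted p = 0.328 and 0.0849). Adamtsl5 was 1.05, 1.06 and 1.95 CPM against 1.38 to 6.27 CPM (-0.96, limma adjusted p = 0.0178). Adamts1, a versican-cutting protease, was 23.7, 17.5 and 14.9 CPM against 20.6 to 69.0 CPM (-0.73, limma adjusted p = 0.0367). For each of these 3 genes 1 silenced limb lay inside the control range.

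Mmp28 was under 1 CPM in every limb: it was listed at 0 in repeated atrophy animals 1 and 3, had 0.0355 CPM in animal 2 and ran from 0.0409 to 0.848 CPM in control (limma adjusted p = 0.0139). Without repeated atrophy animal 2, the calls of Mmp15, Adamtsl5, Adamts1 and Mmp28 were lost. Mmp15, Adamtsl5 and Mmp28 also lost their calls without animal 1, and Adamts1 and Mmp28 without animal 3.

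**Figure D3:**
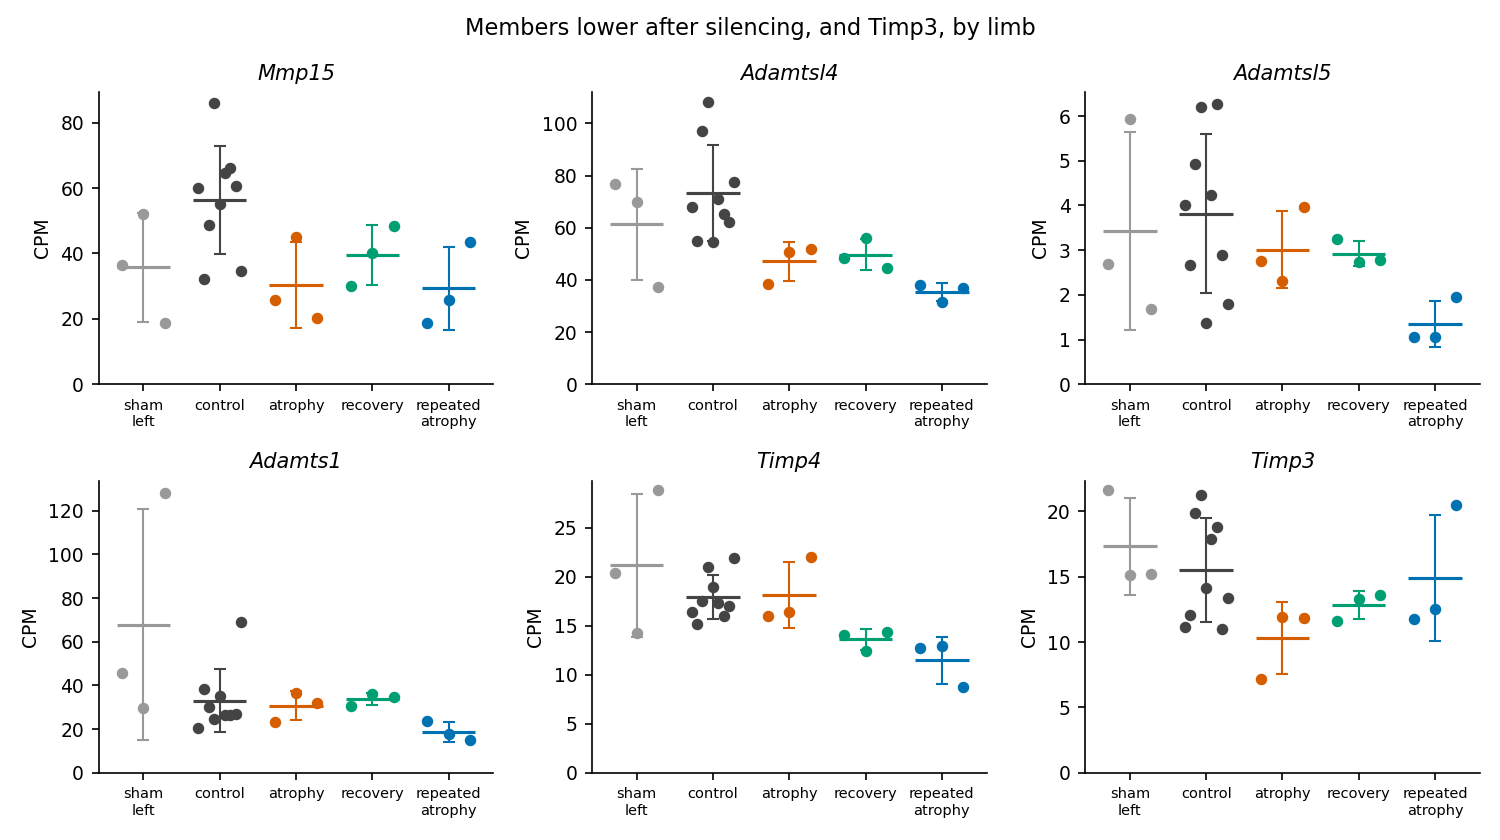
CPM of Mmp15, Adamtsl4, Adamtsl5, Adamts1, Timp4 and Timp3 in each limb, drawn as points with the mean (line) and SD (bar) of each group. After repeated silencing Adamtsl4 and Timp4 lie below all 9 control limbs, Timp3 does not, and sham animal 3 stands at 128 CPM of Adamts1.

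Across the 3 comparisons, which share the 9 control limbs, 16 members were called at least once, 11 of them in a single comparison. The share of all rows called at least once is not given here. Each comparison alone called 22.6% (atrophy), 7.73% (recovery) and 34.3% (repeated atrophy) of all rows. Adam19, Adamts6, Mmp15 and Adamtsl4 were called after both silencing periods. In recovery Adam19 was 30.3, 16.95 and 62.0 CPM and Adamts6 was 5.01, 6.47 and 9.77 CPM. For both genes animal 3 was above the control maximum and the other 2 limbs lay within the control range (log2 fold change 0.44 and 0.37, limma adjusted p = 0.512 and 0.497), and Adamts6 was higher on the left than on the right in 3 of 3 recovering animals (mean 0.81 on the log2 scale). The stages were also compared with each other. Adam19 and Adamts6 were lower in recovery than in atrophy by -1.39 and -1.30 on the log2 scale (limma adjusted p = 0.0465 and 0.0277) and higher in repeated atrophy than in recovery by 1.99 and 1.53 (adjusted p = 0.00599 and 0.00807). Recovery exceeded atrophy for Adamts2 (1.62, adjusted p = 0.0118), Mmp2 (1.15, 0.0324), Adamts12 (0.78, 0.022) and Adamts16 (0.62, 0.0374), which made 6 of 52 members beside 17.9% of all rows. Repeated atrophy was lower than recovery for Timp1 (-1.27, adjusted p = 0.0467) and Adamts12 (-0.79, 0.0129), which made 4 of 52 members beside 27.2% of all rows. After rescaling, 11 members were called between repeated atrophy and recovery, beside 21.6% of all rows. Over the 9 fits that each left out 1 animal, Timp1 lost its call against recovery in 7 and Adam19 its call between recovery and atrophy in 7. Between recovery and atrophy, Adamts16 lost its call in 6, Adamts6, Mmp2 and Adamts12 in 4 each and Adamts2 in 1. With the sham right limbs added, Timp1 was not called between repeated atrophy and recovery (adjusted p = 0.0528), and Mmp2 (-0.92) and Adamts2 (-1.01) were called lower there (adjusted p = 0.0481 and 0.0485). No call of either stage comparison held with animal as a block, where 0.0143% and 0.0855% of all rows were called.

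Repeated atrophy against the first atrophy gave 0 calls among the 52 members with limma, beside 0.0356% of all rows, and 6 members had an unadjusted p under 0.05, as did 6.3% of all rows. Rescaling and the block gave 0 calls as well. Timp2 differed most, by 1.40 ± 0.38 on the log2 scale (SE, adjusted p = 0.301).

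**Figure D4:**
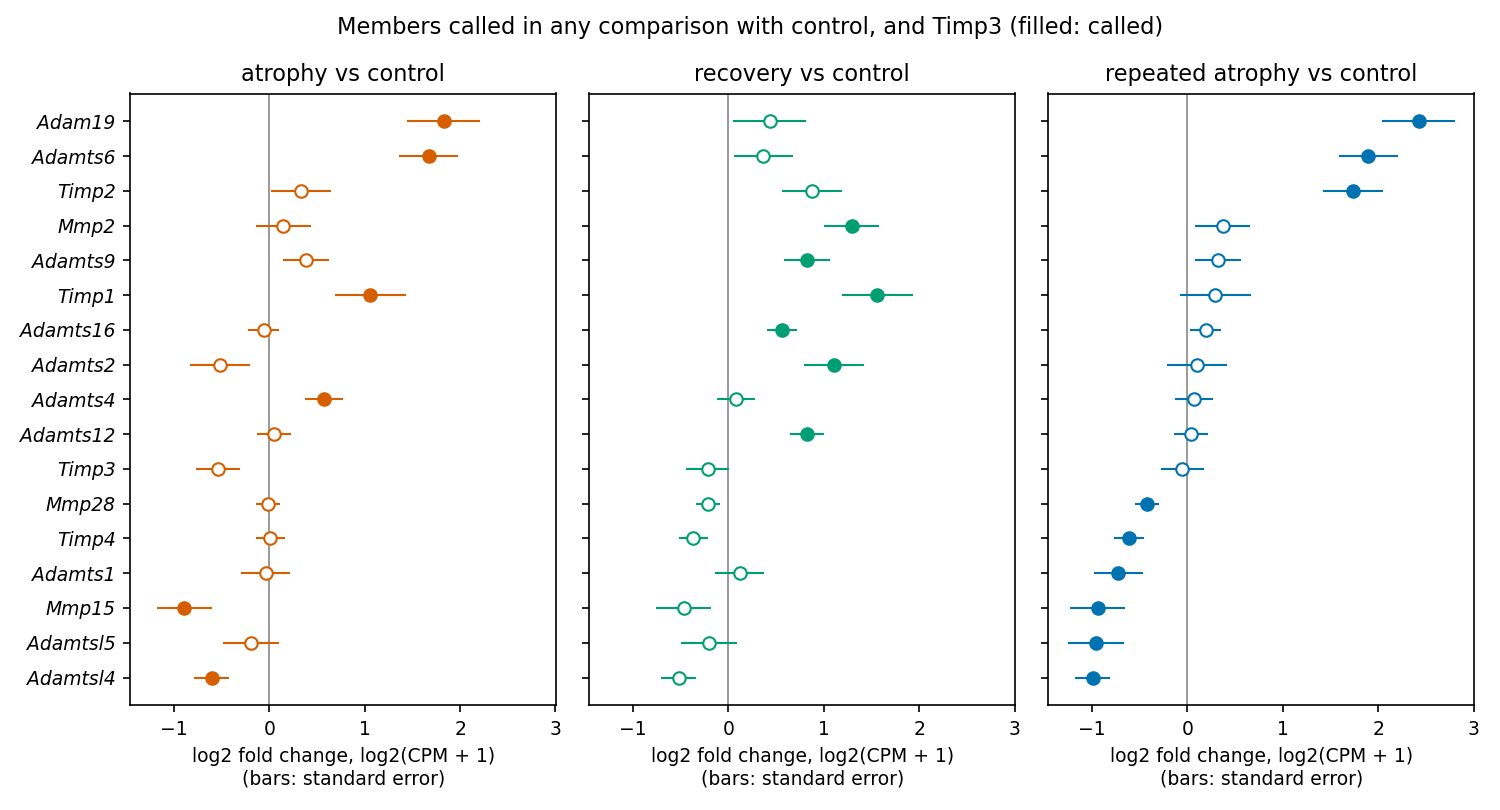
Log2 fold change against control with its standard error, on log2(CPM + 1), for the 16 members called in any of the 3 comparisons and Timp3, with filled points for calls. Adam19 and Adamts6 are filled in both silencing panels, Mmp2 and 4 ADAMTSs are filled in recovery alone, and 6 members are filled below 0 in repeated atrophy.

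Adam10, Adam17 and Adam9, which release the outer part of membrane proteins, were not called in any comparison with control. Adam10, the main sheddase of Notch receptors and N-cadherin, was 21.3, 11.9 and 16.5 CPM in atrophy, 11.8 to 15.6 CPM in recovery and 10.2, 23.1 and 21.8 CPM in repeated atrophy, against 9.33 to 18.8 CPM in control. Adam17, which releases tumour necrosis factor, was 17.1 to 29.6 CPM in control and 18.7, 36.5 and 38.0 CPM in repeated atrophy. Adam9 stayed at 56.3 to 78.8 CPM in control and at 36.3 to 105 CPM in repeated atrophy. For each, repeated atrophy animal 1 was low and the other 2 animals were above the control range. The differences in repeated atrophy were 0.53 ± 0.24, 0.27 ± 0.20 and -0.03 ± 0.22 on the log2 scale (SE, adjusted p = 0.0915, 0.345 and 0.933), and the value for Adam17 turned to -0.11 after rescaling. Without repeated atrophy animal 1, Adam10 and Adam17 were called higher (0.85 and 0.52, adjusted p = 0.0120 and 0.0295), and without atrophy animal 2 Adam10 was called higher both in repeated atrophy (0.61, adjusted p = 0.0282) and in atrophy (0.72, adjusted p = 0.0301).

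Of 15 listed activators and cofactors of these enzymes, 4 were called higher and 1 lower in atrophy (beside 20.3% and 2.33% of all rows), and 6 higher and 1 lower in repeated atrophy (beside 28.1% and 6.24%). The median log2 fold change of the list was 0.28 in atrophy and 0.48 in repeated atrophy. After rescaling 2 were called higher in atrophy (4.55% of all rows), with a median of -0.07, and 4 were called higher and 2 lower in repeated atrophy (13.0% and 12.1% of all rows), with a median of 0.21. Tspan15, a tetraspanin that steers Adam10, was 70.1 ± 10.3 CPM in repeated atrophy (SD, n = 3) against 15.7 ± 8.77 CPM in control (log2 fold change 2.21, limma adjusted p = 2.9e-04), and 47.6 ± 20.9 CPM in atrophy (1.56, adjusted p = 0.00939). Bsg, known as an inducer of MMPs, was 1426 ± 289 CPM in repeated atrophy against 408 ± 77.5 CPM in control (1.80, adjusted p = 1.1e-04). The tetraspanins Tspan33 (1.22) and Tspan14 (1.17) were also higher there, and Pcsk6, a convertase, was lower (-0.76). These 5 calls in repeated atrophy held with the block, while the calls of Plau and Pcsk5 (adjusted p = 0.258 and 0.0921) and every call in atrophy did not.

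Among 9 other inhibitors and clearance receptors, Serpine2, an inhibitor of plasminogen activators, was lower in repeated atrophy (28.4 ± 10.1 CPM against 71.6 ± 15.1 CPM in control, log2 fold change -1.34, limma adjusted p = 6.3e-04). A2m (0.61) and Tfpi2 (0.40) were higher, and both calls were lost after rescaling. These made 2 of 9 higher and 1 lower, beside 28.1% and 6.24% of all rows. Reck, a membrane-anchored MMP inhibitor, was not called in any comparison (log2 fold change -0.38 in atrophy, 0.35 in recovery and 0.10 in repeated atrophy).

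Of 17 tested genes for membrane proteins that these enzymes can release, 5 were called higher and 1 lower in repeated atrophy, beside 28.1% and 6.24% of all rows. The median of the list was -0.05, and with animal as a block 3 were called higher and 3 lower (21.5% and 5.66% of all rows). Ncam1, a neural cell adhesion molecule that denervated fibres are known to express, was 333 ± 219 CPM against 25.6 ± 12.3 CPM (log2 fold change 3.50, limma adjusted p = 3.0e-04). App rose by 2.17 and Hbegf by 1.93 (adjusted p = 1.9e-04 and 0.00145), and Cdh15, the cadherin of muscle cells, was lower by -0.90 (adjusted p = 0.00987). The calls of Cd44 and Notch2 were lost with the block (adjusted p = 0.0522 and 0.112).

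Proteases and inhibitors were then compared as sums, over 37 proteases and 4 TIMPs, in CPM per kb. These sums take no account of which TIMP binds which protease. The protease sum was 70.3 to 103 in the 9 control limbs, 102, 80.0 and 116 in atrophy, 98.9, 89.8 and 127 in recovery and 79.7, 111 and 117 in repeated atrophy. The TIMP sum was 34.6 to 65.4 in control, 76.4, 35.5 and 57.1 in atrophy, 68.2, 54.6 and 85.7 in recovery and 69.3, 103 and 136 in repeated atrophy. The protease sums overlapped control in each group, and the TIMP sum exceeded the highest control limb in each limb of repeated atrophy.

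The ratio of TIMPs to proteases was 0.409 to 0.658 in control and 0.869, 0.928 and 1.16 in repeated atrophy. The right limbs of those same 3 animals had ratios of 0.504, 0.570 and 0.635. Atrophy (0.749, 0.443 and 0.493) and recovery (0.690, 0.608 and 0.675) overlapped control, as did the sham left limbs (0.610, 0.596 and 0.407). Timp2 made up 77.2 to 85.2% of the TIMP sum in repeated atrophy and 40.6 to 61.0% in control. Without Timp2 the change of the ratio in repeated atrophy went from 0.89 to -0.48 on the log2 scale, so its direction rested on that gene.

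When each member counted equally, the mean log2 deviation of the proteases from control was 0.16 in atrophy, 0.29 in recovery and 0.14 in repeated atrophy, and that of the TIMPs was 0.22, 0.46 and 0.34. For proteases and TIMPs it was 0.223 and 0.355 in the sham left limbs and 0.161 and 0.253 in the sham right limbs. The difference of proteases minus TIMPs was -0.06 ± 0.31, -0.18 ± 0.06 and -0.20 ± 0.11 (SD, n = 3), and -0.13 ± 0.13 in the sham left limbs, against an SD of 0.21 over the control limbs. Each of these means lay within 1 SD of the control limbs, which is the spread of single limbs and not of a mean of 3. Single limbs ran from -0.25 to -0.14 in recovery, from -0.28 to -0.08 in repeated atrophy and from -0.30 to 0.23 in control. The recovery mean depended on the reference limbs and the repeated atrophy mean on rescaling, as given in the last section. Counting Adam30, which was under 1 CPM in every limb, as a protease gave a log2 change of the ratio of 0.88 in repeated atrophy, beside 0.89 without it. No test was made on these sums and means.

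**Figure D5:**
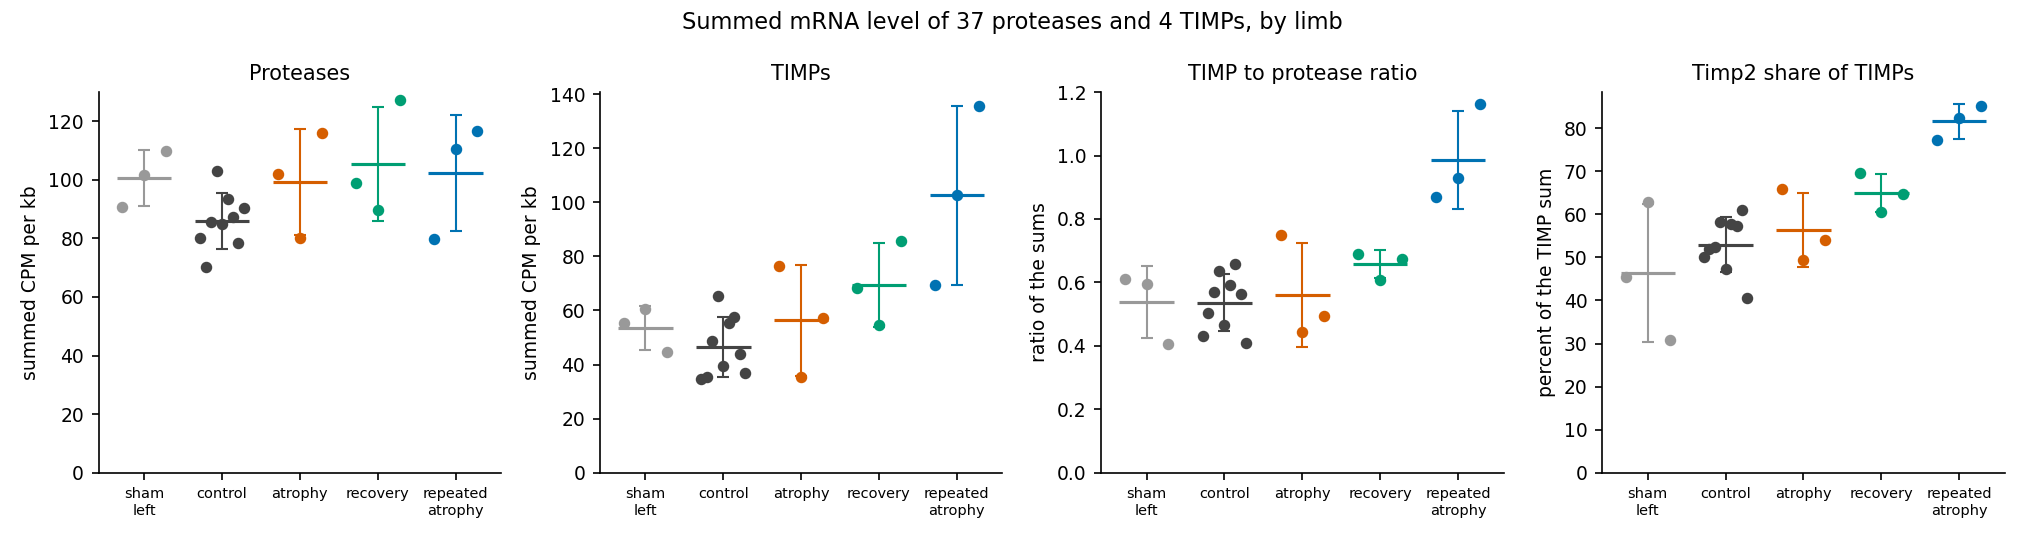
Summed CPM per kb of 37 proteases and of 4 TIMPs, the ratio of the sums and the share of Timp2 in the TIMP sum (percent), for each limb. Points are limbs, lines are means and bars are SD (n = 9 in control, 3 elsewhere). In repeated atrophy the ratio runs from 0.869 to 1.16, above all 9 control limbs, and the Timp2 share from 77.2 to 85.2%.

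The left limbs of the sham animals gave 0 calls of 52 members against control with limma, beside 0% of 13822 rows, and 8 members had an unadjusted p under 0.05, as did 13.8% of all rows. Rescaling gave 0 calls as well. The control limbs came from other animals, so the block compared the left with the right limbs of the sham animals instead (13483 rows), and it gave 0 calls. Adamts1 stood at 45.7, 29.5 and 128 CPM in the sham left limbs and 46.4, 38.8 and 128 CPM in the right, so animal 3 was high on both sides. Without sham animal 2, 2 members were called higher, Adamts4 and Adamts9, and in both genes the high level was shared by both limbs of sham animals 1 and 3. The share of all rows called in that fit is not given here. Adamts4 was 1.28 and 1.82 CPM in their left limbs and 1.96 and 2.53 CPM in their right limbs.

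The upstream sequence is shown for the 3 members called higher in repeated atrophy and for 3 of the ADAMTSs called higher in recovery, a choice made after their values were seen. RefSeq promoter windows (GRCr8, 250 bases before to 50 bases after the start) matched 36 of 52 members, and Mmp2 was not among them. Timp1 was matched but is not shown, because its window lies inside the annotated gene. Bases -220 to -51 before the annotated start are given 5′ to 3′ in the direction of the gene, with capitals marking 3 motifs on either strand, which are TGAGTCA (the AP-1 motif), CAGCTG (an E-box) and GGGCGG (the GC box). The positions are Adam19 at chr10:30992541-30992710 (plus strand), Adamts6 at chr2:37155068-37155237 (plus strand), Timp2 at chr10:104089265-104089434 (minus strand), Adamts2 at chr10:35421810-35421979 (plus strand), Adamts9 at chr4:127019927-127020096 (minus strand), Adamts12 at chr2:61759767-61759936 (plus strand).
Adam19: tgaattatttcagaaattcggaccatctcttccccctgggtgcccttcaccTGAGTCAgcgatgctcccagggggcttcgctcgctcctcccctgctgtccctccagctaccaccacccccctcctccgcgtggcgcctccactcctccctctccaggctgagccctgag
Adamts6: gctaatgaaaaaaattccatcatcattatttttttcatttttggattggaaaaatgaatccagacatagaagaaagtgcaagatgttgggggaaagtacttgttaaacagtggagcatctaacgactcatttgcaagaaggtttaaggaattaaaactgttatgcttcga
Timp2: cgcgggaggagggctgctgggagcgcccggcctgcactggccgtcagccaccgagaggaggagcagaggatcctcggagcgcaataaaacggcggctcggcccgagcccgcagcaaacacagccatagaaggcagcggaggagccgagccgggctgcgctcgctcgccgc
Adamts2: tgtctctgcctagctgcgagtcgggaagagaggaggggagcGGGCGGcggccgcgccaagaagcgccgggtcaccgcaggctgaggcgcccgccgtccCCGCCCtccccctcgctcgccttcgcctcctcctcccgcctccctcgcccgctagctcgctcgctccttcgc
Adamts9: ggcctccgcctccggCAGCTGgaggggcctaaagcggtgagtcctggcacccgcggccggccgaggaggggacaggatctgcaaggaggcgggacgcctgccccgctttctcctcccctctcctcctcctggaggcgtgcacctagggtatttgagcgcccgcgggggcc
Adamts12: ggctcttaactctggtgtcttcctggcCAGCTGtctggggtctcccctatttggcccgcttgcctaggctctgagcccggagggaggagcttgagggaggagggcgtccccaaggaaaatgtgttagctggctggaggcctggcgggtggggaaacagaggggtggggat

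The AP-1 motif was in 5 of the 36 windows (Adam19, Mmp3, Mmp10, Mmp12 and Mmp13) and in 4.63% of all 33469 windows of that length. In Adam19 it lies at -169 to -163. The E-box CAGCTG was in 8 of 36, among them Adamts2, Adamts9 and Adamts12, and in 15.1% of all windows. The GC box was in 20 of 36 and in 33.1% of all windows, and TATAAA was in 9 of 36 and in 14.2% of all windows, among them the windows of Mmp3, Mmp8, Mmp10, Mmp12 and Mmp13, which lie close together on chromosome 8. None of these motifs overlapped another in the stretches shown. The stretches of Adamts6 and Timp2 hold none of the 3 marked motifs in full, and the GC box of Timp2 lies at -54 to -49, across the end of its stretch. A match of letters is a description and says nothing of whether a factor binds.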

How the data were processed

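The table was deposited by the authors as CPM, with each value column summing to 1000000, for both TA muscles of 12 rats (24 samples). The authors removed contaminant reads with Bowtie2 (2.2.5), aligned the rest to rn7 with STAR and worked in Partek Flow. Which annotation and counting method they used is not given in the sources used here. Of 27 value columns, 3 that match no sample were not used. Values reached far below 1 read and 87.9 to 89.4% of low values were whole multiples of the smallest step (tolerance of 0.02 of a step), so reads were not recovered and no count model was run. The design had assumed normalised counts, and its test for normalised values was kept. Each animal gave 1 sample per limb.

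After 28 duplicate rows were dropped, rows above 0 in at least 3 samples entered a limma fit (version 3.58.1, R 4.3.3, trend on the mean level) on log2(CPM + 1): 14031 rows over the 18 limbs of the TTX animals and 13822 rows over the 12 limbs of the sham comparison. The script was tested on simulated data. The labels pair the left and right limb of an animal, so animal was fitted as a block in an alternative. The estimated correlation of both limbs of an animal, over all rows, was 0.108. Contrasts between stages under the block are differences of left-to-right differences. Where a symbol has several rows, that of the highest mean stands for it, and each member has 1 row.

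Named genes were the 4 TIMPs, Mmp2, Mmp9, Mmp14, Adam10, Adam17, Adam19, Adamts1, Adamts4 and Adamts5 and up to 20 further called members per comparison. The context lists gave Reck and up to 4 called genes per list and comparison. Adam9 and the other low or high members given for their level were chosen after their values were seen, as were Pcsk6, Plau, Pcsk5, Cdh15 and Notch2. The members and all lists were chosen with earlier results of these data known. Alternatives were a pseudocount of 0.1, median of ratios rescaling, a minimum mean of 1 CPM, no filter, rows summed per symbol, 12 right limbs or each group's own right limbs as control, the block and leaving out each animal. The block with rescaling, the minimum level for the protease mean, the sums per kb with their settings and counting Adam30 as a protease were added after seeing the data. Figures were drawn with matplotlib 3.10.9.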

Additional observations from a re-analysis of the deposited data

Results flagged for a closer look

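Of 24 sets of 9 control limbs compared with Dixon's 95% critical value of 0.493, 3 had a limb that stood apart, where chance gives about 1 in 20. Adam10 was 18.8 CPM in control limb 5, the right limb of atrophy animal 2, and the next limb had 13.3 CPM. Adamts5, an aggrecan-cutting protease, was 0.106 CPM in the same limb and 1.47 CPM in the next. Adamts5 was called in no comparison with control (log2 fold change -0.06, 0.41 and -0.02 in atrophy, recovery and repeated atrophy). Adamts1 was 69.0 CPM in control limb 9, the right limb of atrophy animal 3, and the next limb had 38.2 CPM. The cause of these values was not tested.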

How the results depend on the processing

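Over 109 single-gene results, 2009 alternative values were computed, and 136 had the opposite sign, none of them for a called result. Of 575 alternative values of the 31 called results, 175 were no longer called. With the replicate block as a fixed term, alone or with rescaling, the number of called members went from 6 to 0 in atrophy, from 6 to 0 in recovery, from 6 to 0 between recovery and atrophy and from 4 to 0 between repeated atrophy and recovery, while it stayed at 9 in repeated atrophy with the block alone and was 11 with both (21% of all rows). Each group's own right limbs gave 0 in atrophy, 0 in recovery and 7 in repeated atrophy (0%, 0.349% and 27.2% of all rows). As a random effect the block moved no count by over 1.5 times. With 12 right limbs, 2 members were called in atrophy (beside 17.1% of all rows) and 8 in repeated atrophy (beside 30.1%). Rescaling gave 10 in recovery (12.1% of all rows) and 11 between repeated atrophy and recovery (21.6% of all rows), and a mean of at least 1 CPM gave 8 in the latter. Leaving out each animal gave 0 to 9 called members in atrophy, 0 to 7 in recovery, 5 to 11 in repeated atrophy, 0 to 6 between recovery and atrophy, 2 to 7 between repeated atrophy and recovery and 0 to 2 in the sham comparison. For these fits and for the minimum mean, the share of all rows called is not given here, so their counts have no background. The protease minus TIMP mean moved in recovery from -0.18 to -0.11 with a pseudocount of 0.1, to -0.030 with own right limbs and to -0.045 over members of at least 1 CPM. In repeated atrophy it moved from -0.20 to -0.066 after rescaling and to -0.073 as a median. The log2 ratio of TIMPs to proteases moved without Timp2 from 0.31 to -0.11 in recovery and from 0.89 to -0.48 in repeated atrophy, where it was 1.19 without Adam9 and Adam19. Apart from the removal of members or samples, the cause was not tested. Members under 1 CPM rest on few reads, and 3 animals a group limit every interval.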
